A study of Mus musculus with 4 samples.

Results

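The collagen-richest spots are the areas of each heart section in which the messages of the main fibrillar collagens took the largest share of the RNA, outside the areas dense in Arg1- and Mmp12-expressing macrophages. In each section the spots with 5000 or more UMIs (unique molecular identifiers, the counted RNA molecules) and with Arg1 plus Mmp12 under 0.4% of UMIs were ranked by the share of UMIs on Col1a1, Col1a2 and Col3a1, and the upper 10% were taken. That gave 962 spots of 9619 eligible spots and of 10744 spots under tissue. Antibody replicates 1 and 2 held 226 and 250 of them, and ICI-alone replicates 1 and 2 held 228 and 258. Because the same fraction was taken everywhere, the number of these spots says nothing about how fibrotic a section was. The levels of the 3 collagen genes and of Arg1 and Mmp12, which chose the spots, are given as descriptions, and the 5 genes entered no test.

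The study compared 2 groups of 2 heart sections of wild type FVB/NJ mice, measured with Visium, an array of barcoded spots that each cover a small region of several cells. Every mouse carried an immunization against a MyHCα (alpha cardiac myosin heavy chain) peptide and had received anti-PD-1 and anti-CTLA-4, a pair of immune checkpoint inhibitors (ICIs). The antibody group had also received an IL-17A neutralizing antibody, and the ICI-alone group had not; the labels record myocarditis in the ICI-alone group. The tissue was formalin-fixed, paraffin-embedded heart, each group had a section in batch 1 and another in batch 2, and neither age nor sex is in the labels. The labels do not state whether each section is from its own animal, and the p-values below cover only the section-to-section spread, which may be technical; no untreated section was analysed here. The ventricular cardiomyocyte list summed to between 53411 and 130033 CPM (UMIs of a gene per 1e+06 UMIs) in the eligible spots outside the collagen-richest ones, as a heart label requires.

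Type I and type III collagen form the fibrils of cardiac scar and of the normal matrix around vessels and under the epicardium, the outer cell layer of the heart. They are made by fibroblasts, and activated fibroblasts add crosslinking enzymes such as lysyl oxidase and glycoproteins such as periostin and tenascin. IL-17A, a cytokine of T cells, acts on fibroblasts and other stromal cells and is known to raise their output of neutrophil-attracting chemokines and matrix metalloproteinases.

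The spots chosen by equal rank differed widely in how much collagen message they held. In the antibody sections the median collagen-richest spot had 0.444% and 0.553% of its UMIs on the 3 genes, against 2.19% and 5.20% in the ICI-alone sections. The lowest member had 0.280% and 0.411% with the antibody and 1.54% and 4.03% with ICIs alone, and the highest spot left outside had 0.279% and 0.410% with the antibody and 1.54% and 4.02% with ICIs alone. The lowest chosen spot of either ICI-alone section therefore lay above the median chosen spot of both antibody sections. The rest of the section, that is the other eligible spots, had medians of 0.0614% and 0.105% with the antibody and 0.334% and 1.12% with ICIs alone. The chosen spots held 46.3% and 36.9% of the eligible spots' collagen UMIs with the antibody, and 42.9% and 33.7% with ICIs alone. The plot of collagen share by rank shows the 4 curves apart over most of their length.

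**Figure D1:**
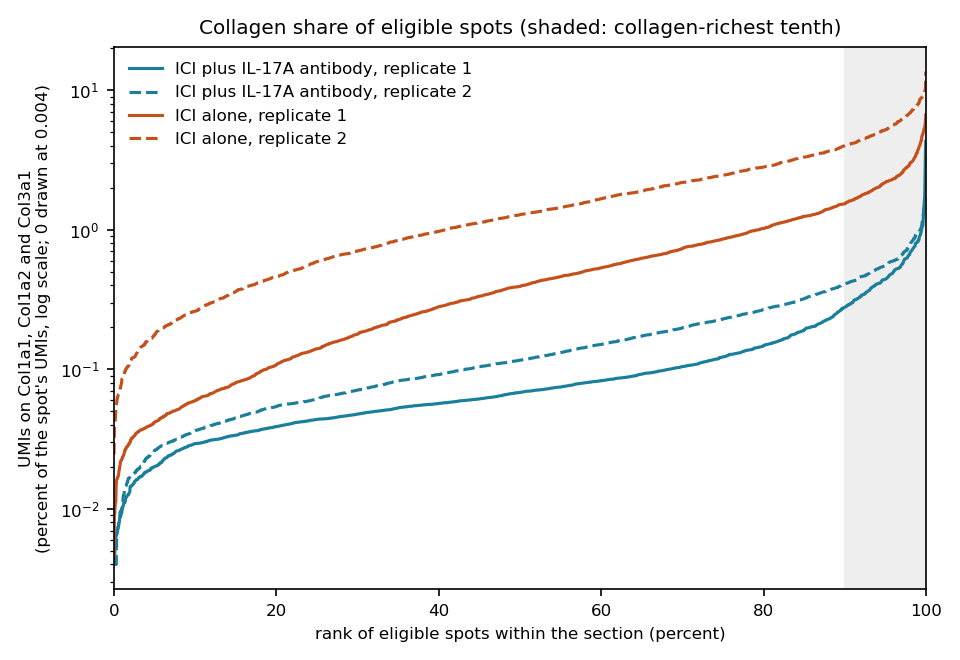
Share of each eligible spot's UMIs on Col1a1, Col1a2 and Col3a1 (log scale, percent) against its rank within the section (percent), 1 line per section; the collagen-richest 10% are shaded. Within the shaded range the antibody sections start at 0.280% and 0.411% and the ICI-alone sections at 1.54% and 4.03%.

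The make-up of the collagen signal differed too. Col1a1 (11:94936224-94953042 in GRCm38.p6, the assembly mm10), the alpha 1 chain of type I collagen, made up 21.1% and 21.5% of the 3 genes' UMIs in the collagen-richest spots of the antibody sections, against 35.9% and 39.7% in those of the ICI-alone sections. Col3a1, the chain of type III collagen, made up 52.3% and 52.3% with the antibody and 41.2% and 34.8% with ICIs alone. In the antibody sections the Col1a1 fraction was nearly the same in the rest of the section (21.1% and 21.4%), whereas with ICIs alone it was 25.1% and 36.5% there. Among eligible spots with 0.411% to 1.54% of UMIs on the 3 genes, a range that all 4 sections share, the Col1a1 fraction was 20.7% and 21.4% with the antibody and 26.1% and 31.2% with ICIs alone. Collagen-richest spots were also deeper than the rest, with medians of 20578 and 14057 UMIs against 18415 and 12235 with the antibody, and 38810 and 25630.5 against 26464 and 18643.5 with ICIs alone.

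The collagen-richest spots lay in patches. Of the neighbouring spots of a member, 59.0% and 49.7% were members too in the antibody sections and 57.3% and 60.9% in the ICI-alone sections, against 3.11% and 4.86%, and 3.57% and 3.31%, for the spots of the rest. The largest connected patch held 54 and 37 spots with the antibody and 103 and 85 with ICIs alone. Members touched a spot left out for Arg1 and Mmp12 more often than the rest did, though most members touched none. In antibody replicate 1, 23.9% of members touched such a spot, and in antibody replicate 2, where the fewest spots were left out (52), 6.8% did; the shares were 20.6% and 27.1% with ICIs alone, against 1.28%, 1.96%, 3.17% and 10.9% for the rest in the same order of sections. The median distance to a left-out spot was 3 and 6 grid steps for members against 14 and 9 for the rest with the antibody, and 3 and 2 against 9 and 5 with ICIs alone.

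The tissue edge, taken as spots with fewer than 6 neighbours under tissue, held 29.6% and 42% of the collagen-richest spots with the antibody and 28.1% and 12.8% with ICIs alone. For the rest these shares were 6.34% and 20.8% with the antibody and 16.3% and 13.7% with ICIs alone. Members were thus at the edge more often than the rest in every section but ICI-alone replicate 2. The authors' deposited table gives Moran's I, a score of how strongly a gene's level clusters over a section, and Col1a1 scored 0.529 and 0.445 with the antibody and 0.794 and 0.788 with ICIs alone. Col1a2 scored 0.540 and 0.494 against 0.741 and 0.737, and Col3a1 0.514 and 0.538 against 0.729 and 0.660. All 3 genes were also lower in level in the antibody sections, and the part of level in these scores was not tested.

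**Figure D2:**
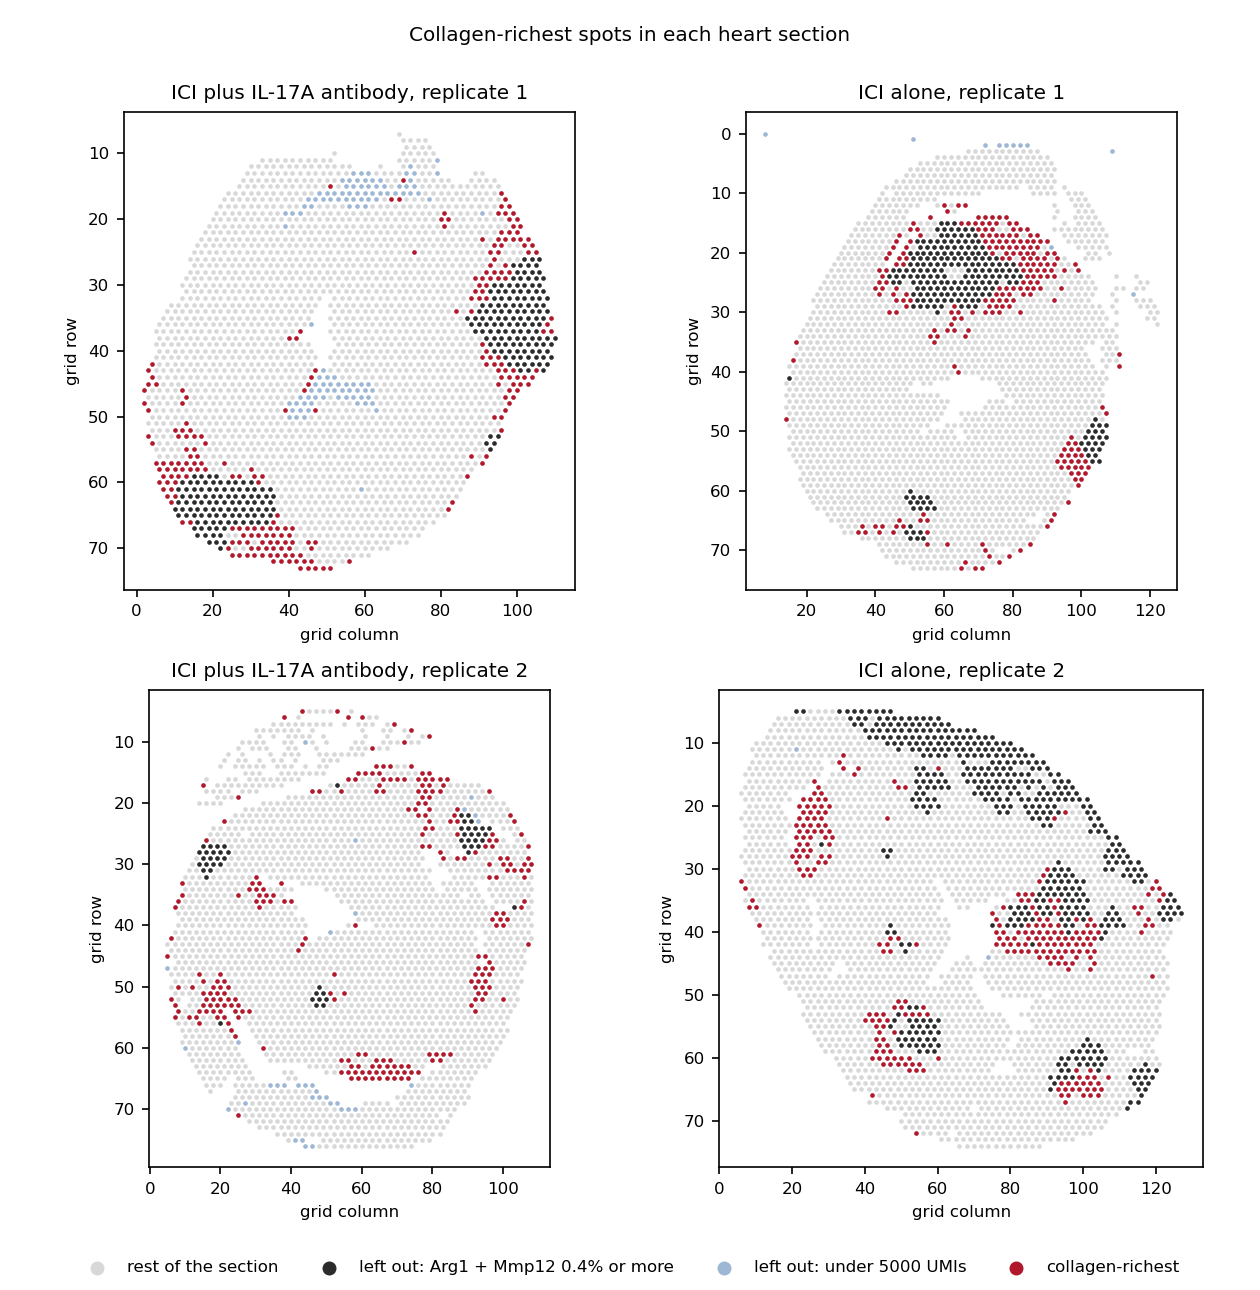
Grid position (column and row of the array) of every spot under tissue in the 4 sections, with the antibody sections on the left; red spots are the collagen-richest, black spots were left out for Arg1 and Mmp12, blue spots for having under 5000 UMIs, and grey spots are the rest. Red spots touch black spots more often than grey spots do, though only 6.8% of them do so in antibody replicate 2. At the tissue border lie 29.6% and 42% of the red spots of the antibody sections and 28.1% and 12.8% of those of the ICI-alone sections.

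Against the rest of the same sections, collagen-richest spots were richer in other matrix genes, T cells, dendritic cells, macrophages, MHC class II and dividing cells, and poorer in cardiomyocyte, endothelial and red blood cell messages. Of 16363 genes tested, 2708 were higher (16.5%) and 2756 lower (16.8%), together 33.4%, by edgeR's quasi-likelihood test on counts summed per section and spot class with the section as a block (adjusted p under 0.05, Benjamini-Hochberg, used for every call below; unadjusted p under 0.05 in 43.9%). The median log2 difference of all genes was 0.10. When library size alone set the scale, the split became 4766 higher and 1809 lower, 72.5% higher, and the all-gene median 0.32. Of the 5464 calls, 4517 were called the same way under that scaling, with fewer genes lower and more higher. Calls of small falls, and small rises left uncalled, thus depend on the scaling.

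Matrix genes led the rises, in spots that had been chosen by the share of 3 collagen genes. Over all eligible spots the rank correlation of that share with the share of the other collagens was 0.58 and 0.63 in antibody replicates 1 and 2. In ICI-alone replicates 1 and 2 it was 0.88 and 0.92, so the choice of spots favoured such genes. P4ha3, an enzyme that hydroxylates prolines in collagen, had 3.93 and 7.72 CPM in the collagen-richest spots of the antibody sections and 22.0 and 69.6 CPM in those of the ICI-alone sections, against 0.855 and 1.22 CPM, and 3.40 and 17.9 CPM, in the rest (log2 difference 2.35 ± 0.18 SE, adjusted p = 0.000648). Cthrc1, a secreted protein of activated fibroblasts, stood at 6.68, 7.72, 167 and 351 CPM in the collagen-richest spots of antibody replicates 1 and 2 and ICI-alone replicates 1 and 2, against 0.977, 1.71, 21.0 and 102 CPM in the rest (log2 difference 2.40 ± 0.23, adjusted p = 0.000668). Both genes were higher in the collagen-richest spots of all 4 sections. The other named rises by size were Col11a1, Ecrg4, Ltbp2, Col12a1, Tnc, Col6a5, H2-M2 and Mfap4, with log2 differences from 2.12 to 2.64, of which all but Ecrg4 and H2-M2 encode matrix proteins. Of the list of other fibrillar and fibril-associated collagens 12 of 13 rose, of collagen processing and crosslinking 15 of 18, and of matricellular proteins and glycoproteins 11 of 17 with 1 lower (medians 1.04, 0.83 and 1.29). Dcn, the proteoglycan decorin and a general fibroblast marker, did not pass (log2 difference 0.16 ± 0.11, adjusted p = 0.32), nor did Acta2, the smooth muscle actin of myofibroblasts (0.12 ± 0.18, adjusted p = 0.658), and of the general fibroblast list 4 of 14 rose and 2 fell.

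Immune genes rose as well. All 14 T cell genes passed (median 1.31), as did 13 of 14 macrophage genes (0.91), 9 of 11 dendritic cell genes (1.17), all 6 MHC class II genes (1.10) and 13 of 14 proliferation genes (1.12). Cd3e, a chain of the T cell receptor complex, had 53.5, 50.0, 30.0 and 17.8 CPM in the collagen-richest spots of antibody replicates 1 and 2 and ICI-alone replicates 1 and 2, against 13.6, 18.0, 15.7 and 13.8 CPM in the rest (log2 difference 1.20 ± 0.24, adjusted p = 0.00888). Its 4 values in the rest lay close together, and its 4 values in the collagen-richest spots did not. Resident macrophage genes behaved otherwise, with 0 of 8 higher and 4 lower (median -0.33). Scaled by library size alone, the summed list stood at 1.04, 1.21, 0.782 and 1.08 times the rest in the same order of sections. Arg1, one of the genes that excluded spots, still stood at 419, 131, 474 and 655 CPM in the collagen-richest spots against 34.5, 45.8, 93.7 and 311 CPM in the rest, below the exclusion limit in every spot.

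Muscle and vessel genes were lower. All 14 tested ventricular cardiomyocyte genes fell (median -1.73). Myh6, the alpha myosin heavy chain, stood at 7794, 7391, 1964 and 1007 CPM in the collagen-richest spots of antibody replicates 1 and 2 and ICI-alone replicates 1 and 2, against 31083, 19306, 13083 and 6762 CPM in the rest (log2 difference -2.22 ± 0.28, adjusted p = 0.0015). The largest named falls were Ces1d, Efnb3, Aqp7, Car14, Gpr22, Smco1, Lrtm1, Sun3, Rbp7 and Ucp3; Aqp7 encodes a glycerol channel and fell by 2.67 on the log2 scale. Of 14 endothelial genes 12 fell (median -0.59), and all 4 red blood cell genes did (median -1.45). Since every value is a share of a spot's UMIs, less muscle RNA and more RNA of other kinds cannot be told apart, nor can fewer cells of a type and less RNA per cell. Leaving out antibody replicate 2 or ICI-alone replicate 1 lowered the total from 5464 calls to 2862 and 3104.

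The gradients over collagen share were not the same in all sections, as the plot of gene lists by bins of 10% of the spots shows. From the bin poorest in collagen to the richest, the cardiomyocyte list went down at every step in all 4 sections. In antibody replicate 1 it stood at 144591 CPM in the poorest bin, 116850.0 CPM in the eighth and 52015 CPM in the richest, whereas in ICI-alone replicate 2 it was at 50476 CPM by the fifth bin and at 15139 CPM in the richest. The list of IL-17 response genes, chemokines and matrix enzymes that IL-17A is known to induce, was highest in the richest bin in antibody replicates 1 and 2 (1098 and 843 CPM) and in ICI-alone replicate 1 (3099.8 CPM). In ICI-alone replicate 2 it peaked at 3921 CPM in the ninth bin and stood at 2877 CPM in the richest.

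**Figure D3:**
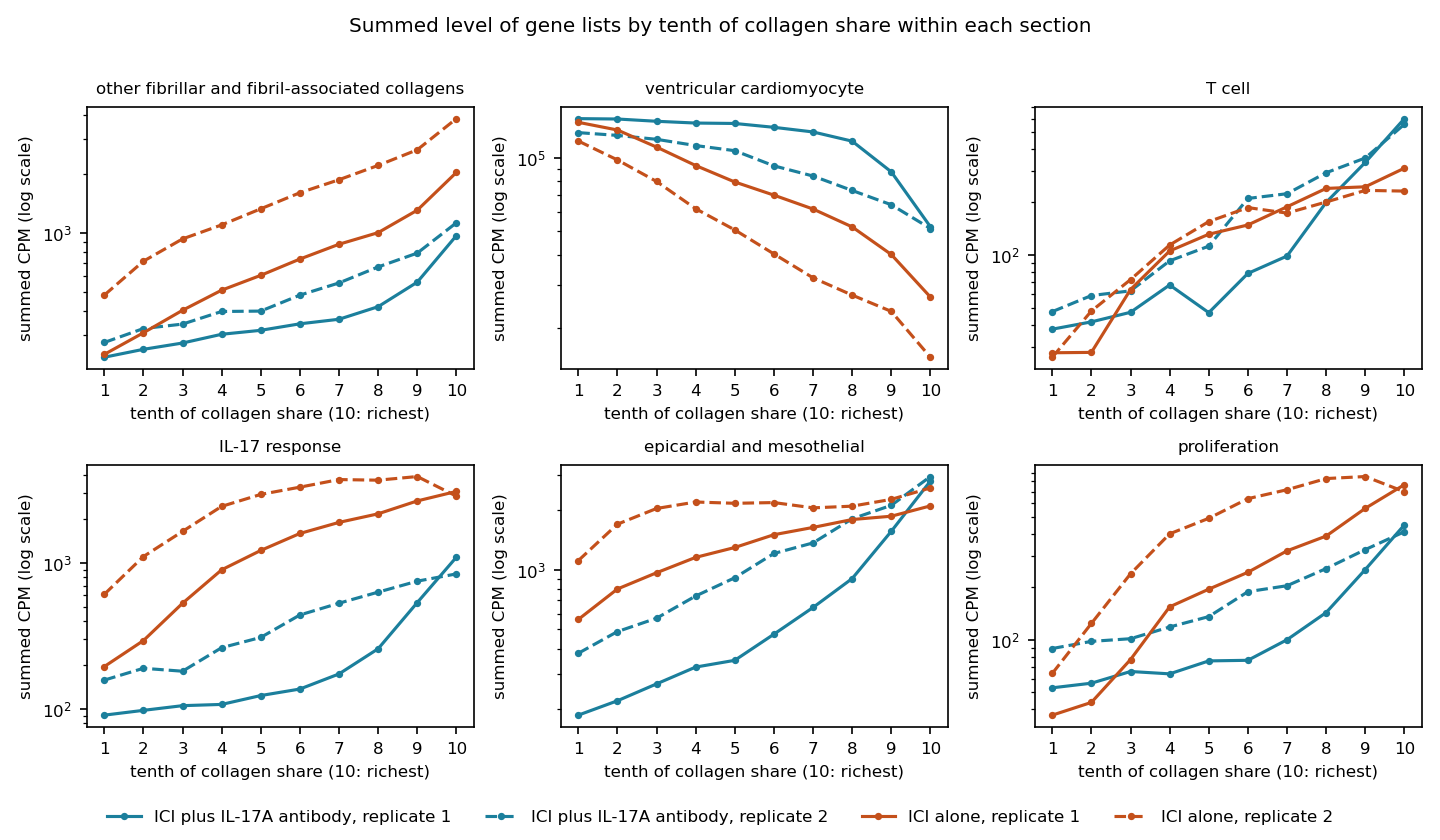
Summed CPM (log scale) of 6 gene lists in bins of 10% of the eligible spots, ordered within each section from the lowest (1) to the highest (10) collagen share, 1 line per section. The T cell list ends highest in the antibody sections, at 599 and 556 CPM against 313 and 232 CPM with ICIs alone, and the cardiomyocyte list falls along every line.

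Between treatments, the collagen-richest spots of the antibody sections held fewer messages of activated-fibroblast matrix genes, neutrophil genes and IL-17 response genes, and more of T cell, cytotoxic, dendritic cell and interferon gamma response genes than those of the ICI-alone sections. Of 12479 genes tested, 650 were higher with the antibody (5.21%) and 636 lower (5.1%), together 10.3% (edgeR's quasi-likelihood test; unadjusted p under 0.05 in 27.2%). The 2 values of one group lay wholly above or below the 2 of the other in 57.5% of all genes tested, so lack of overlap is common here. The median log2 fold change of all genes was -0.01. The number of calls changed with the sections used: it was 90 without antibody replicate 1, 121 without antibody replicate 2, 2536 without ICI-alone replicate 1 and 757 without ICI-alone replicate 2, against 1286 with all 4; in each of these fits the lone section of a group is assumed to vary like the sections of the other. With the batch as a replicate block 1013 genes were higher and 978 lower. Of the 126 named genes that passed, 23 stayed past the threshold in the same direction under each of the 21 alternatives that gave a value for them: Adam12, Apol11b, Col12a1, Cthrc1, Cxcl1, Cxcl5, Cxcl9, Cxcr2, Dio3, Fkbp10, Gzma, Krt19, Lck, Lox, Loxl2, Mmp3, Mmp9, Msln, Plod2, Prg4, S100a8, S100a9 and Tnc. An alternative in which a gene was too low to test was not counted against it. Msln and Krt19 thus had no value without tissue edge spots.

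These spots differed in more than treatment. The cardiomyocyte list, 14 genes, summed to 52015 and 51155 CPM in the collagen-richest spots of the antibody sections against 26795 and 15139 CPM in those of the ICI-alone sections, and the collagen share differed as given above. A second comparison was therefore added, after the data had been seen, over the spots with 0.411% to 1.54% of UMIs on the 3 collagen genes: 130 and 248 spots with the antibody and 882 and 1032 with ICIs alone. All of these antibody spots were collagen-richest spots. None of the ICI-alone spots were, since the range ended below the lowest ICI-alone member. The comparison thus set collagen-richest spots of the antibody sections against lower-ranked spots of the ICI-alone sections. In that shared range 1304 genes were higher with the antibody and 1063 lower of 13541 tested, of which 488 had been called the same way in the collagen-richest 10%. Only the limits of that range were shared: pooled over its spots, the 3 genes still took 0.617% and 0.636% of UMIs with the antibody and 0.839% and 0.962% with ICIs alone. Its values stand below as those in the shared collagen range.

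Many matrix genes fell. Cthrc1 (15:39076932-39087121 in mm10) had 7.22 and 8.52 CPM with the antibody and 174 and 384 CPM with ICIs alone. Both antibody sections lay far below both ICI-alone sections. Its log2 fold change was -5.15 ± 0.40 SE (adjusted p = 0.00119), the largest fall among named genes, and -2.68 (adjusted p = 0.00852) in the shared collagen range. Col12a1 (9:79598987-79721141), a collagen that decorates fibrils, had 12.3 and 9.32 CPM with the antibody and 110 and 156 CPM with ICIs alone (log2 fold change -3.60 ± 0.24, adjusted p = 0.00058), and -1.498 in the shared collagen range (adjusted p = 0.0128). Lox, lysyl oxidase, which crosslinks collagen, had 36.7 and 61.0 CPM with the antibody and 317 and 444 CPM with ICIs alone (-2.97 ± 0.28, adjusted p = 0.00132). Tnc, tenascin C, had 148 and 99.3 CPM against 850 and 577 CPM (-2.53 ± 0.28, adjusted p = 0.00216). The groups did not overlap in any of these 4 genes. Postn (3:54359267-54391041), periostin, had 28.2 and 30.1 CPM with the antibody and 99.0 and 262 CPM with ICIs alone (-2.62 ± 0.39, adjusted p = 0.00776), but missed the threshold without antibody replicate 1 (adjusted p = 0.0899), without antibody replicate 2 (0.0724) and in the shared collagen range (0.107).

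The matrix lists moved mostly one way. Of the other fibrillar and fibril-associated collagens, 9 of 12 tested fell and 0 rose (median -1.63, 13 in the list), of collagen processing and crosslinking 14 of 18 fell and 0 rose (-1.39), of proteases and inhibitors 12 of 18 tested fell and 0 rose (-1.04, 19 in the list), and of small proteoglycans and elastic fibres 11 of 19 fell and 2 rose (-1.51). The matricellular list had 9 of 17 lower and 1 higher (-0.95). In the shared collagen range the corresponding counts were 4 of 12 lower with a median of -0.17, 8 of 18 lower and 1 higher (-0.43), 7 of 19 lower (-0.51), 6 of 19 lower and 1 higher (-0.44), and 6 of 17 lower and 2 higher (-0.57). Those smaller medians are on the same log2 scale, with the all-gene median at 0.00. Without antibody replicate 1 or 2, the numbers lower were 1 and 3 for the collagens, 5 and 5 for crosslinking, 4 and 3 for proteases, 0 and 0 for small proteoglycans, and 3 and 2 for the matricellular list. Of 14 in the general fibroblast list 4 fell and 1 rose (-0.29), and of 18 myofibroblast and TGF-beta response genes 2 fell and 0 rose (-0.28). Acta2 had 310.1 and 250.3 CPM with the antibody and 436 and 313 CPM with ICIs alone (adjusted p = 0.272), and Dcn 917 and 858 CPM against 1379 and 1602 CPM (adjusted p = 0.08). Pi16, a marker of adventitial fibroblasts, had 62.9 and 84.7 CPM against 97.6 and 73.5 CPM, with overlapping groups (adjusted p = 0.544).

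**Figure D4:**
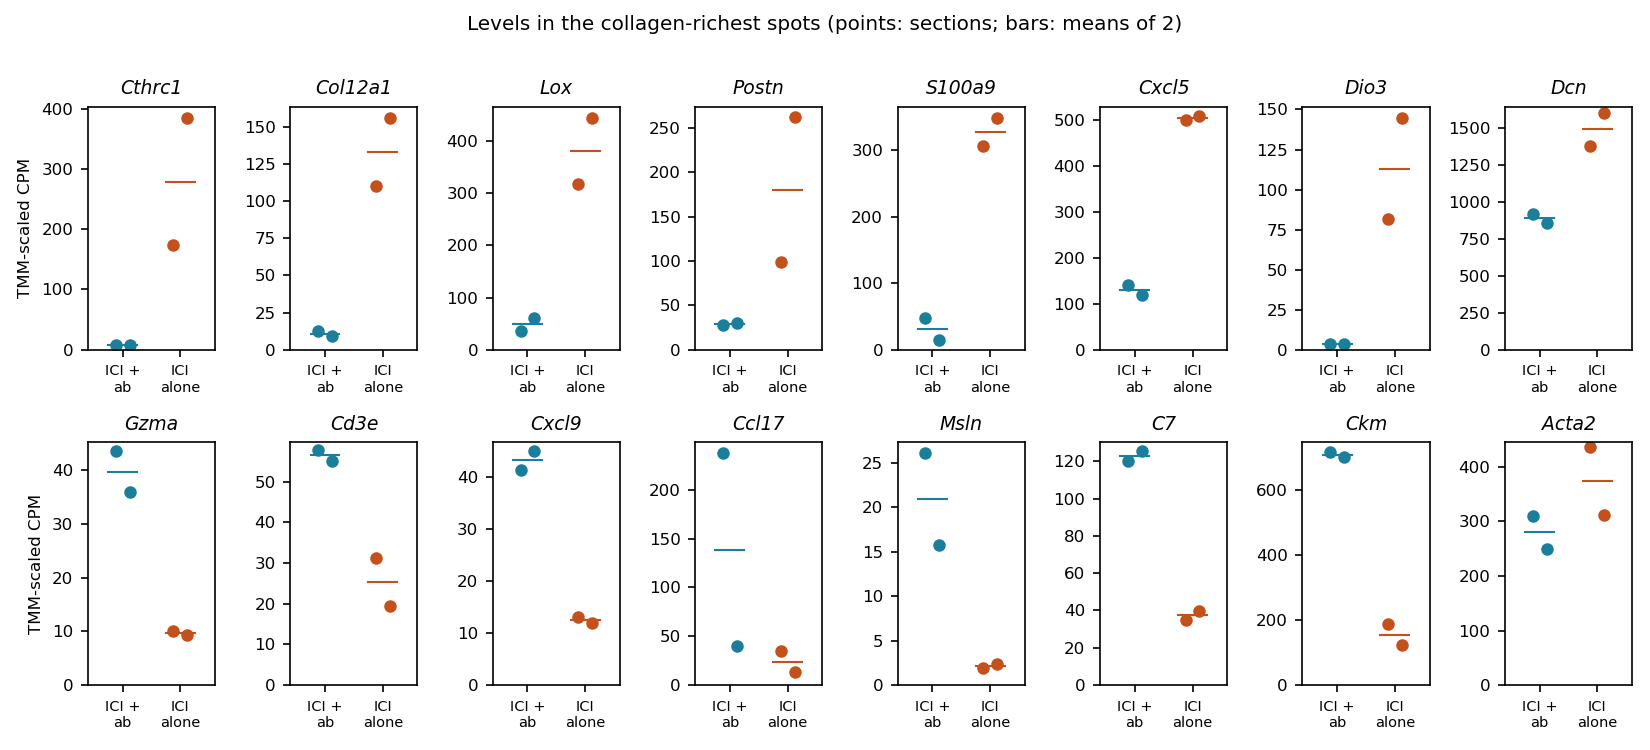
TMM-scaled CPM of 16 genes in the collagen-richest spots, 1 point per section and a bar at the mean of the 2 sections of each group, with ICIs plus the IL-17A antibody on the left and ICIs alone on the right of each panel. Cthrc1, at 7.22 and 8.52 CPM against 174 and 384 CPM, and Gzma, at 43.5 and 36.0 CPM against 10.1 and 9.35 CPM, show the groups apart in opposite directions; Acta2 and Dcn did not pass the test.

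Several neutrophil and IL-17 response genes fell as well. S100a9 (3:90692630-90695721), a calcium-binding protein abundant in neutrophils, had 47.8 and 15.4 CPM with the antibody and 307 and 349 CPM with ICIs alone (log2 fold change -3.36 ± 0.41, adjusted p = 0.00322), and also -3.36 in the shared collagen range (adjusted p = 0.0101). Its partner S100a8 had 18.7 and 10.4 CPM against 107 and 152 CPM (-3.13 ± 0.28, adjusted p = 0.00132). Cxcl5, a chemokine that attracts neutrophils, had 142 and 120 CPM with the antibody and 501 and 510 CPM with ICIs alone (-1.95 ± 0.20, adjusted p = 0.00149), and Cxcl1, another, 54.2 and 40.2 CPM against 198 and 177 CPM (-1.99 ± 0.20, adjusted p = 0.00143). Both chemokines were lower in each antibody section than in either ICI-alone section. Mmp3, stromelysin 1, had 23.4 and 37.8 CPM with the antibody and 164 and 266 CPM with ICIs alone (-2.82 ± 0.29, adjusted p = 0.00183). Of the neutrophil list 6 of 11 tested fell and 1 rose (median -2.12, 14 in the list), and of the IL-17 response list 10 of 19 tested fell and 1 rose (-1.07, 22 in the list). In the shared collagen range these were 6 of 10 lower and 1 higher (-1.58), and 10 of 20 lower and 1 higher (-1.18). In the rest of the section the medians lay further below 0, though 0 genes of either list passed there. They were -2.51 over 14 tested neutrophil genes and -2.92 over 21 tested IL-17 response genes. The lists overlap, since both hold S100a8, S100a9 and Lcn2. Mmp3, Mmp9 and Mmp13 of the IL-17 response list are also in the list of proteases and inhibitors. Without antibody replicate 1 or 2, 4 and 4 of the neutrophil genes and 8 and 9 of the IL-17 response genes were lower. Il6 had 51.8 and 15.7 CPM against 90.4 and 53.6 CPM and missed the threshold (adjusted p = 0.142), though not with the replicate block (0.00487). The receptor chain Il17ra had 45.9 and 49.8 CPM with the antibody and 58.5 and 57.2 CPM with ICIs alone (adjusted p = 0.281).

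Lymphocyte and interferon genes were higher with the antibody. Gzma (13:113093824-113100981), granzyme A of cytotoxic lymphocytes, had 43.5 and 36.0 CPM with the antibody and 10.1 and 9.35 CPM with ICIs alone (log2 fold change 2.03 ± 0.20, adjusted p = 0.00143), and 1.31 in the shared collagen range (adjusted p = 0.0141). Cxcl9 (5:92321331-92328079), a chemokine induced by interferon gamma that attracts T cells, had 41.4 and 45.0 CPM with the antibody and 13 and 11.9 CPM with ICIs alone (1.79 ± 0.18, adjusted p = 0.00149), and 2.62 in the shared collagen range (adjusted p = 0.00663). Lck, a kinase of T cell receptor signalling, had 61.4 and 73.2 CPM against 26.3 and 20 CPM (1.53 ± 0.19, adjusted p = 0.00339). In all 3 genes both antibody sections lay above both ICI-alone sections. Of the cytotoxic list 9 of 12 tested rose and 0 fell (median 1.504, 13 in the list), of the T cell list 7 of 14 (1.00), of the dendritic cell list 6 of 11 (1.16) and of the interferon gamma response list 10 of 21 (0.82), each with 0 lower. In the shared collagen range 11 of 13, 13 of 14, 7 of 11 and 15 of 21 rose. There the ICI-alone spots were lower-ranked ones, and the T cell list was lower at low rank. In ICI-alone replicates 1 and 2 it summed to 27.8 and 26.2 CPM in the bin poorest in collagen and 313 and 232 CPM in the richest. The part of rank in the shared-range counts was not tested.

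Fewer lymphocyte genes passed with 1 antibody section left out. Without antibody replicate 1 or 2, 3 and 1 of the cytotoxic genes, 1 and 1 of the T cell genes, 0 and 3 of the dendritic cell genes and 1 and 1 of the interferon gamma response genes passed, while the list medians were 1.29 and 1.64, 0.77 and 1.1, 0.92 and 1.35, and 0.74 and 0.92. Cd3e had 57.8 and 55.1 CPM with the antibody and 31.3 and 19.5 CPM with ICIs alone (1.14 ± 0.22, adjusted p = 0.0155), and missed the threshold without antibody replicate 1 (1.09, adjusted p = 0.117) or 2 (1.17, adjusted p = 0.0941). Cd8a, the CD8 chain of cytotoxic T cells, had 12.7 and 9.85 CPM against 7.07 and 3.17 CPM (adjusted p = 0.0935, and 0.0297 with the replicate block). Ccl17, a chemokine of dendritic cells, had 238 CPM in antibody replicate 1 and 39.9 CPM in antibody replicate 2, against 34.5 and 13.6 CPM with ICIs alone (2.51 ± 0.68, adjusted p = 0.0471), and it missed the threshold in 10 of 21 alternatives, DESeq2 and scaling by library size among them, with adjusted p up to 0.448, without antibody replicate 1. MHC class II genes did not pass in either direction (0 of 6, median -0.22).

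**Figure D5:**
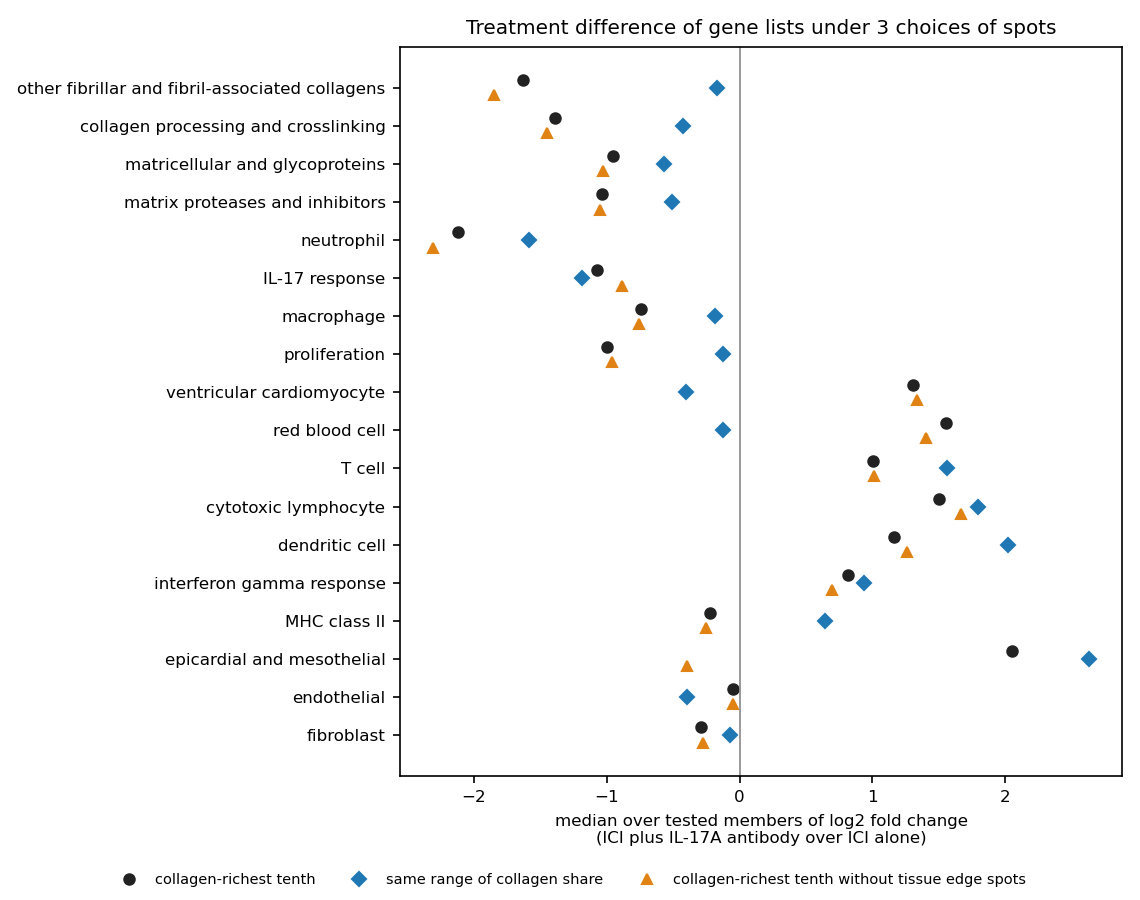
Median log2 fold change (ICI plus IL-17A antibody over ICI alone) over the tested members of 18 gene lists, for the collagen-richest 10%, for spots in the shared range of collagen share and for the collagen-richest 10% without tissue edge spots. The medians of the T cell (1.00, 1.56 and 1.01) and neutrophil lists (-2.12, -1.58 and -2.31) keep their sign, whereas that of the cardiomyocyte list (1.30, -0.40 and 1.33) changes it in the shared collagen range and that of the epicardial list (2.05, 2.63 and -0.39) without edge spots. Without edge spots fewer epicardial genes could be tested, Msln and Krt19 not among them, so the medians of that list cover different genes. In the shared range the antibody spots were collagen-richest spots and the ICI-alone spots were lower-ranked ones, and the part of rank in those medians was not tested.

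Of the macrophage list 4 of 14 fell and 0 rose (median -0.74), 8 fell with the replicate block, 0 fell without antibody replicate 1 or 2, and 1 fell in the shared collagen range (-0.19). Cd68, a lysosomal protein of macrophages, had 133 and 134 CPM with the antibody and 238 and 382 CPM with ICIs alone (-1.21 ± 0.24, adjusted p = 0.0161, and 0.131 and 0.133 without antibody replicate 1 or 2). Of 13 tested proliferation genes 10 fell and 0 rose (-0.997), against 0 of 13 in either direction in the shared collagen range (-0.12) and 0 of 13 without antibody replicate 1 or 2. Of 14 cardiomyocyte genes 8 rose and 0 fell (1.30), against 0 higher and 4 lower in the shared collagen range (-0.40) and 1 higher without antibody replicate 1 or 2. Ckm, muscle creatine kinase, had 719 and 703 CPM with the antibody and 188 and 122 CPM with ICIs alone (2.19 ± 0.25, adjusted p = 0.00229), but -0.21 in the shared collagen range (adjusted p = 0.371). Of the 4 red blood cell genes 3 rose, and 0 did in the shared collagen range. The counts of the proliferation, cardiomyocyte and red blood cell lists thus depended on which spots were compared.

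Several epicardial and mesothelial genes rose with the antibody. Msln (17:25748613-25754378), mesothelin of the outer heart surface, had 26.1 and 15.7 CPM with the antibody and 1.97 and 2.38 CPM with ICIs alone (3.28 ± 0.35, adjusted p = 0.0019). Krt19 (11:100140810-100145926), a keratin of the same layer, had 15.7 and 12.0 CPM against 0.927 and 1.74 CPM (3.41 ± 0.39, adjusted p = 0.00229). Of the list 7 of 14 tested rose and 2 fell (median 2.05, 16 in the list). Without tissue edge spots 7 genes of the list were left to test, of which 0 rose and 2 fell, and Msln and Krt19, too low there, were not among them. Among collagen-richest spots at the edge, Msln stood at 91.1 and 39.8 CPM with the antibody and 8.13 and 23.9 CPM with ICIs alone. Among interior members that touched no left-out spot it stood at 2.42 and 0.499 CPM, against 0 and 0.25 CPM with ICIs alone. Wt1, a transcription factor of the epicardium, had 10.4 and 5.33 CPM with the antibody and 9.5 and 13 CPM with ICIs alone and did not pass (adjusted p = 0.419). The share of members at the edge (29.6% and 42% against 28.1% and 12.8%) differed in the same direction, and its part in the result was not tested.

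A few named genes stood outside the lists or rested on 1 section. Dio3 (12:110279230-110281097), the deiodinase that inactivates thyroid hormone, had 3.61 and 3.73 CPM with the antibody and 81.5 and 144 CPM with ICIs alone (-4.93 ± 0.34, adjusted p = 0.00058), and -3.54 in the shared collagen range. Apol11b rose by 4.65 ± 0.48 on the log2 scale (10.4 and 10.7 CPM against 0.579 and 0.158 CPM, adjusted p = 0.00169). Retnla, a secreted protein of alternatively activated macrophages, had 115 and 127 CPM with the antibody and 27.6 and 2.06 CPM with ICIs alone (2.97 ± 0.67, adjusted p = 0.0255, and 0.128 and 0.137 without antibody replicate 1 or 2). Myl7, the atrial myosin light chain, had 3.40 and 294 CPM with the antibody and 0.464 and 0.634 CPM with ICIs alone (8.05 ± 1.80, adjusted p = 0.0254, and 0.149 without antibody replicate 2), so nearly all of its level lay in antibody replicate 2. C7, a complement component of fibroblasts, had 120 and 126 CPM with the antibody and 34.9 and 39.9 CPM with ICIs alone (1.72 ± 0.16, adjusted p = 0.00132), but 0.56 in the shared collagen range (adjusted p = 0.329).

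Within the collagen-richest spots, some genes differed in level by position. Those shown were picked after values were seen from a larger set of genes, and Col1a1 and Col3a1 had helped to choose the spots. Members were divided into tissue edge spots (67 and 105 with the antibody, 64 and 33 with ICIs alone), interior spots touching a left-out spot (42 and 12, 37 and 66) and other interior spots (117 and 133, 127 and 159). The collagens differed by position. Col1a1 was higher in the touching spots than in the other interior members of every section, at 1425 and 1602 CPM against 873 and 1335 CPM with the antibody, and 10435 and 22890.1 CPM against 7863 and 22463 CPM with ICIs alone. Col3a1 was lowest in the touching spots of every section, at 2211 and 1747 CPM with the antibody and 7596 and 16171 CPM with ICIs alone, against 2485 and 3480 CPM, and 9272 and 20794 CPM, in the other interior members. Spp1, osteopontin, was highest in the touching spots, at 340 and 295 CPM with the antibody and 882 and 1346 CPM with ICIs alone, against 201 and 109 CPM, and 378 and 453 CPM, in the other interior members. Cxcl9 was also highest in the touching spots of all 4 sections, at 70.7 and 86.8 CPM with the antibody and 19.8 and 13.3 CPM with ICIs alone. These levels are plain CPM without TMM scaling, they rest on as few as 12 spots in antibody replicate 2, and no test was run on them. Cthrc1 stayed between 4.04 and 17.4 CPM in every position of the antibody sections and between 151 and 400.4 CPM in those of the ICI-alone sections.

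Over the 226, 250, 228 and 258 members, in the order antibody replicates 1 and 2 and ICI-alone replicates 1 and 2, the rank correlation of collagen share with the share of the other collagens was 0.52, 0.51, 0.70 and 0.61. With the IL-17 response list it was 0.29, 0.31, 0.09 and -0.22, and with the T cell list 0.31, 0.29, 0.14 and -0.03. Over all eligible spots, not cut by collagen share, it was positive in every section, at 0.47, 0.58, 0.82 and 0.58 with the IL-17 response list and 0.44, 0.51, 0.58 and 0.53 with the T cell list. These are descriptions over spots of single sections, which share a library and lie next to each other.

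The treatment difference in the collagen-richest spots was set against that in the rest of the section by the interaction of spot class and treatment. No gene of 16363 passed in edgeR's quasi-likelihood test (0%; unadjusted p under 0.05 in 9.1%), whereas DESeq2 called 42 and the fit with the replicate block 1123 (930 with a more positive antibody difference in the collagen-richest spots and 193 with a more negative one). In the rest of the section the treatment test itself passed no gene of 17576 (0%; unadjusted p under 0.05 in 25.5%, groups not overlapping in 60.3%), with 1653 by DESeq2 and 4189 with the replicate block. So a call in the collagen-richest spots does not show that the gene's difference was particular to them. For Cthrc1 the fold change in the rest was -5.52 on the log2 scale (adjusted p = 0.103), and its interaction was 0.08 ± 0.46 (adjusted p = 0.973). For Cd3e the difference in the rest was 0.09 (adjusted p = 0.801), and its interaction of 1.07 ± 0.27 did not pass either (adjusted p = 0.47). Some list medians lay further below 0 in the rest than in the collagen-richest spots: -2.92 against -1.07 for IL-17 response, -2.13 against -0.95 for matricellular genes and -1.61 against -0.997 for proliferation. Those of the other collagens (-1.46 against -1.63) and crosslinking (-1.28 against -1.39) did not. The tested members differed slightly between the 2 fits.

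The 10 genes with the smallest interaction p had adjusted p from 0.217 to 0.241 and are given without a call. Myh7, the beta myosin heavy chain of the stressed heart, had 660 and 780 CPM in the collagen-richest spots of the antibody sections and 776 and 1107 CPM in those of the ICI-alone sections, against 217 and 352 CPM, and 1202 and 2383 CPM, in the rest. It was thus higher in collagen-richest spots than in the rest in both antibody sections and lower in both ICI-alone sections (interaction 2.24 ± 0.30, adjusted p = 0.237). Apod, apolipoprotein D, had 23.0 and 39.6 CPM in the collagen-richest spots with the antibody and 10.5 and 4.49 CPM with ICIs alone, against 19.6 and 30.8 CPM, and 44.1 and 41.9 CPM, in the rest (2.84 ± 0.34, adjusted p = 0.217). The others were Nt5dc2, Gas1, Nrep, Kif26b and Mpzl1, with interactions from -2.28 to -1.34, and Vwf, Fhl1 and Abi3bp, with interactions from 1.28 to 2.07.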

How the data were processed

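Per the labels, 4 Visium libraries of formalin-fixed, paraffin-embedded mouse hearts were made. Values used are unnormalized UMI counts of genes in tissue-covered spots, as the authors deposited them; per the file headers they come from Space Ranger 2.1.0. Per the submitters' processing notes mm10 and Seurat 5.1.0 were used, with no stated role for Seurat, and no source used here names the probe set. The authors' deposited score per gene is Moran's I. Gene coordinates come from a RefSeq table of GRCm38.p6.

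Counts were summed per section over the collagen-richest spots and over the other eligible spots (5000 or more UMIs, Arg1 plus Mmp12 under 0.4%), filtered with filterByExpr, scaled with TMM and tested with edgeR 4.0.16 (R 4.3.3), quasi-likelihood F test, Benjamini-Hochberg at 0.05. TMM factors differ between fits, so the CPM of a gene differ slightly between treatment and spot class comparisons; list sums and levels by position are scaled by library size alone. Standard errors come from the fold change and F. Sections held 33005923 to 73167202 UMIs; biological coefficients of variation were 15.7% in the collagen-richest spots and 20.5% in the rest, and 2 sections against 2 allow an exact permutation p of 0.333 at the smallest. Sections shared 1670 barcodes, which are array positions. On simulated data all of 200 genes changed 4-fold were recovered in the treatment comparison (12392 genes, 8 false calls) and 95.5% in the interaction (15086 genes). Every simulated gene was given the same spread, so these shares check the code and do not give the power of the tests on the real counts. The labels' batch numbers are shared by the groups; same-batch deviations correlated at 0.112 over 12484 genes, and the replicate block was an alternative.

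The members, the 40 gene lists and the tests were chosen with earlier results of these data known. Named genes are a panel, the 10 largest rises and falls per test among genes of 10 CPM or more with 1 direction in both batches (all 4 sections for spot classes), the 4 or fewer list members of smallest p in each list, and the 10 smallest p where under 5 genes pass; Spp1, Cxcl9 and other genes by position, the gene C7 and the shared-range comparison were taken up after values were seen. DESeq2 1.42.0 was an alternative.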

Additional observations from a re-analysis of the deposited data

Results flagged for a closer look

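The difference between collagen-richest spots and the rest of the section ran one way in both antibody sections and the other way in both ICI-alone sections for 12 of the 77 genes that the report or its panel names, and for 2 gene lists. No gene's interaction passed edgeR's quasi-likelihood test, and no limit of size was set. Of these 12 genes, 10 were named because their interaction p was smallest. How many of all tested genes ran in opposite directions was not counted, so 12 of 77 cannot be read as many or few. For Myh7 the log2 difference was 1.6 and 1.15 in the antibody sections and -0.632 and -1.11 in the ICI-alone sections (interaction 2.24, adjusted p = 0.237), and for Apod 0.232 and 0.362 with the antibody and -2.05 and -3.19 with ICIs alone (2.84, adjusted p = 0.217). Apol11b (2.79) and Gzma (1.28) were also higher in the collagen-richest spots with the antibody and lower with ICIs alone, both with adjusted p = 0.428, as were Fhl1 (2.07), Vwf (1.55) and Abi3bp (1.28), with adjusted p of 0.217 to 0.241. Nrep (-2.28), Gas1 (-1.75), Nt5dc2 (-1.62), Kif26b (-1.37) and Mpzl1 (-1.34) ran the opposite way, with adjusted p in the same range; for Kif26b the antibody differences were only -0.00968 and -0.11.

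The cardiac stress and fetal list, which holds Myh7, had summed CPM 2.53 and 1.4 times those of the rest with the antibody and 0.752 and 0.529 times with ICIs alone; the geometric means of these ratios differed 2.98-fold between the groups, and the difference was not tested. The adventitial and universal fibroblast list had ratios of 1.13 and 1.09 with the antibody and 0.943 and 0.972 with ICIs alone, a 1.16-fold difference of the geometric means, and that difference was not tested either.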

How the results depend on the processing

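Leaving out 1 section, with the spread then taken from the group that kept 2, gave between 90 and 2536 treatment calls in the collagen-richest spots (40 to 1324 higher, 50 to 1212 lower), 2862 to 5542 between spot classes (922 to 2496 higher, 1763 to 3046 lower), 0 to 63 in the interaction (0 to 53 higher, 0 to 10 lower) and 6 to 1954 in the rest (6 to 555 higher, 0 to 1399 lower). With the replicate block there were 1991 treatment calls (1013 higher, 978 lower), 1123 in the interaction (930 higher, 193 lower) and 4189 in the rest (1617 higher, 2572 lower). Treatment calls numbered 790 with the richest 5% of spots (394 higher, 396 lower), 2096 with 20% (982 higher, 1114 lower), 796 with spots thinned to 5000 UMIs (400 higher, 396 lower) and 2367 in the shared collagen range (1304 higher, 1063 lower), and with no filter on low counts 560 genes were higher and 991 lower. DESeq2 called 42 genes in the interaction (32 higher, 10 lower) and 1653 in the rest (394 higher, 1259 lower). The interaction had 3 calls with 5% of spots (1 higher, 2 lower), 9 with thinned spots (6 higher, 3 lower) and 1 without tissue edge spots (1 higher); the rest had 3 with 5% (3 lower) and 2 with thinned spots (2 lower). Scaling by library size alone gave 4766 higher and 1809 lower between spot classes. The cause was not tested in any of these. In the shared collagen range the log2 fold change changed sign for Pdgfrl (0.66), Abcc9 (-0.36), Prox1 (-0.35), Ckm (-0.21), Tnni3 (-0.23), Ckmt2 (-0.44), Birc5 (0.044), Dkk3 (1.42), Hba-a2 (-0.15), Alas2 (-0.066) and Hbb-bt (-0.11); for Myl4 it lay between -0.13, without antibody replicate 2, and 7.30, without antibody replicate 1. The mean of the antibody sections' median collagen shares was 0.664% with 5% of spots and 0.345% with 20%. The shared collagen range and the removal of edge spots were chosen after seeing the data. A common collagen threshold of 1.98% was not run, since 3 and 0 spots of the antibody sections reached it.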
